A study of Mus musculus with 4 samples.

Results

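The genes described here are 9 TALE homeobox genes: Meis1, Meis2 and Meis3, Pbx2 and Pbx3, Pknox1 and Pknox2, and Tgif1 and Tgif2. They were followed by all probe sets that the platform annotation assigns to exactly 1 of these genes, 21 of the 45101 on the array, for 9 of 18194 gene symbols. Expression was measured on 4 Affymetrix arrays, 1 per sample, in the distal limb bud or autopod, the future hand and foot, of C57BL/6 mouse embryos at about E11.25. In the 2 Hox13dKO samples both copies of Hoxa13 were null and both HoxD clusters carried HoxDdel, which removes Hoxd11, Hoxd12 and Hoxd13 together. The 2 control samples were wild type, of the same strain and stage. The tissue was the Hoxd13 domain of fore- and hindlimb buds alike, which the labels do not separate, and how many embryos went into a sample is not known here. The samples of a group are titled biological replicates. The p-values rest on the spread between these samples, combined with a prior variance estimated over all probe sets tested.

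TALE proteins carry a homeodomain with a lengthened loop and serve as DNA-binding partners of HOX proteins. PBX proteins pair with HOX proteins on DNA, MEIS and PKNOX proteins bind PBX and hold it in the nucleus, and HOX proteins of the terminal groups can also bind MEIS directly. In the limb bud Meis1 and Meis2 mark the proximal part, where retinoic acid sustains them and fibroblast growth factors from the distal ridge restrict them. TGIF proteins are TALE repressors that restrain TGF-beta and retinoid responses.

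Of these 9 genes, Meis2 had the largest difference between groups. In 3 of its 4 probe sets it read higher on both Hox13dKO arrays than on both wild-type arrays, by 1.77- to 2.81-fold. Pbx2 read lower in Hox13dKO by all 3 of its probe sets, but by no more than 1.21-fold. Pbx3 read higher by 1 of its 2 probe sets without overlap of the arrays, 1.38-fold. For Pbx2, Meis1, Meis3, Pknox1, Pknox2, Tgif1 and Tgif2 the 95% interval of every tested probe set included no change. The arrays also did not overlap for Meis3, lower in Hox13dKO, and for 1 probe set each of Pknox2 and Tgif2, higher. In bulk tissue fewer cells of a type and less RNA per cell cannot be told apart. No member passed an adjusted p of 0.05 in limma: 0 of 20 probe sets tested did, against 0.207% of all 27022 probe sets tested (31 higher, 0.115%, and 25 lower, 0.0925%; 146 and 68 after median centring), and 3 of the 20 had an unadjusted p under 0.05, against 6.26% of all. These 3 were 2 probe sets of Meis2 and 1 of Pbx3. The remaining member, a probe set of Meis1, was too dim to be tested. The arrays of the groups did not overlap for 10 of the 20, 6 higher and 4 lower in Hox13dKO. Of all probe sets tested the arrays did not overlap for 34.6%, 16.3% higher and 18.3% lower. Probe sets of 1 gene can read the same transcripts, so these 20 cannot be taken as independent. The median log2 difference, Hox13dKO minus wild type, was 0.11 over the 20 members and -0.01 over all probe sets tested. By the brightest probe set of each gene it was 0.23 over the 9 genes and -0.03 over all 13072 genes. By that probe set 0 of the 9 genes passed, 2 had an unadjusted p under 0.05 (Meis2 and Pbx3; 7.25% of all genes) and 5 had arrays that did not overlap (37.2% of all genes).

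**Figure D1:**
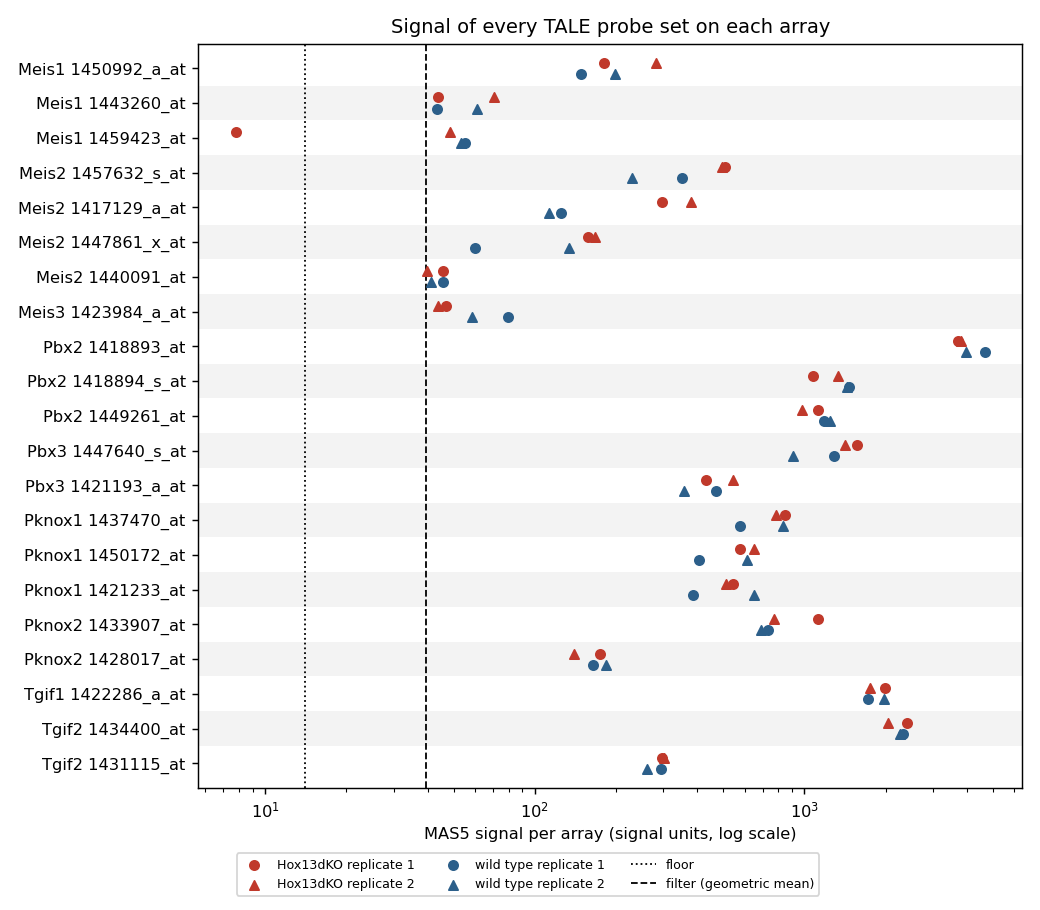
MAS5 signal (log axis, signal units) of each of the 21 TALE probe sets on each of the 4 arrays, with Hox13dKO in red and wild type in blue. The Hox13dKO points lie right of the wild-type points for 3 probe sets of Meis2 and left of them for all 3 of Pbx2. The dotted line is the floor, 14.1 units, and the dashed line the filter, a geometric mean of 39.6 units.

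The labels were checked on the targeted genes, and all 4 fell. Hoxd13, the digit gene of the terminal domain, read 5.79 and 9.58 in Hox13dKO against 14540.4 and 16117 in wild type. Hoxa13 read 52.4 and 58.01 against 842 and 1463, and Hoxd12 5.23 and 33.5 against 1208 and 2171. Hoxd11, which HoxDdel removes, read 348 and 454 against 1831 and 1745, so signal well above the floor remained in Hox13dKO for its probe set. The mesenchyme markers Prrx1, Prrx2, Msx1, Msx2, Twist1, Lhx2 and Lhx9 were all above the filter. Each array bore the same trimmed mean, 500.003, and median signals ranged from 65.8 to 85.7. The 5' to 3' actin signal ratio was 0.473 in wild type replicate 1 and 0.728 to 0.771 on the other arrays.

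The start region of Meis2 is shown because Meis2 has the largest difference of the 9 genes, beside that of its closest relative Meis1. Each sequence is the 250 bases before the gene's start, 5' to 3' on the gene's strand, from RefSeq on GRCm38.p6. Meis2 lies at chr2:116064620-116064869 and Meis1 at chr11:19018970-19019219, both on the minus strand. Capitals mark the only match, in either sequence, to any of 3 motifs searched on both strands: CAATAAA, the letters HOX13 proteins favour, TGATTNAT, a composite HOX and PBX site, and TGACAG, the site of MEIS and TGIF proteins.
Meis2: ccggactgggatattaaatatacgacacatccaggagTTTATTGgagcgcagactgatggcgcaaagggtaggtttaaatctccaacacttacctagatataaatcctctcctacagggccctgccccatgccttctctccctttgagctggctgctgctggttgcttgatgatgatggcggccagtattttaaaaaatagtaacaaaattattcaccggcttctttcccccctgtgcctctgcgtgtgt
Meis1: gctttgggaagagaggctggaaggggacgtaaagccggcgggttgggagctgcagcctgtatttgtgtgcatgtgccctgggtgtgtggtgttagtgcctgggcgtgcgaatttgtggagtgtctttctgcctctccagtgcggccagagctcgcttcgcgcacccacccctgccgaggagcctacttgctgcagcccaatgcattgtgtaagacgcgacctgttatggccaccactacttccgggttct

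The match in Meis2 is CAATAAA on the opposite strand, from 213 to 207 bases before the start. Of 32851 such windows over all genes, 4.20% held CAATAAA, 2.82% TGATTNAT and 15.9% TGACAG. Promoter windows were matched for 6 of the 9 genes, 10 windows in all because Tgif1 has several starts. Among them 1 held CAATAAA (Meis2), 1 held TGATTNAT (Tgif1) and 0 held TGACAG, and no matches overlapped. A match is a description of these letters and was not tested for binding. Meis2, Pbx3 and Tgif2 lie on chromosome 2, which also carries the HoxD cluster.

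Meis2 encodes a MEIS protein that partners HOX and PBX proteins. By the probe set 1417129_a_at, whose suffix marks probes shared by several transcripts of 1 gene, it read 296 and 379 on the Hox13dKO arrays against 125 and 113 on the wild-type arrays. Both Hox13dKO arrays were above both wild-type arrays, and the gap between the groups was wider than the spread within either. The log2 difference was 1.49 ± 0.30 (SE, n = 2 arrays per group), 2.81-fold, with a 95% interval from 0.80 to 2.19. It ranked 184 by p among all probe sets tested and did not pass (limma adjusted p = 0.162). The call turned with the processing. It passed after median centring of the arrays (adjusted p = 0.0146) and when either wild-type array was left out (0.0437 without replicate 1, 0.0445 without replicate 2). With a Hox13dKO array left out it did not pass (0.551 without replicate 1, 0.814 without replicate 2). The log2 difference lay between 1.31 and 1.67 under every alternative that kept this probe set.

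The other Meis2 probe sets gave smaller differences. By 1457632_s_at, the brightest, it read 509 and 494 in Hox13dKO against 352 and 229 in wild type, a log2 difference of 0.82 ± 0.26 (95% interval 0.21 to 1.43; adjusted p = 0.551). By 1447861_x_at it read 158 and 168 against 59.9 and 134, a difference of 0.86 ± 0.47 (adjusted p = 0.885). Both Hox13dKO arrays lay above both wild-type arrays in each of these, but both differences turned on the wild-type arrays. Without wild type replicate 1 they were 1.13 and 0.28, and without replicate 2 they were 0.51 and 1.44. Suffixes _s and _x mark probes that can also bind transcripts of other genes. The fourth, 1440091_at, read 45.7 and 39.8 against 45.6 and 41.1, with the arrays overlapping and a difference of -0.02 ± 0.66. Its signals lay near the filter and are not shown to be above background. Its 95% interval, -1.54 to 1.50, includes the differences of the other Meis2 probe sets. That width depends on the prior variance, which follows mean signal, and not only on the arrays. With no intensity trend in the prior the SE was 0.19, against 0.66. Averaged over its 4 probe sets Meis2 differed by 0.79 (adjusted p = 0.528).

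**Figure D2:**
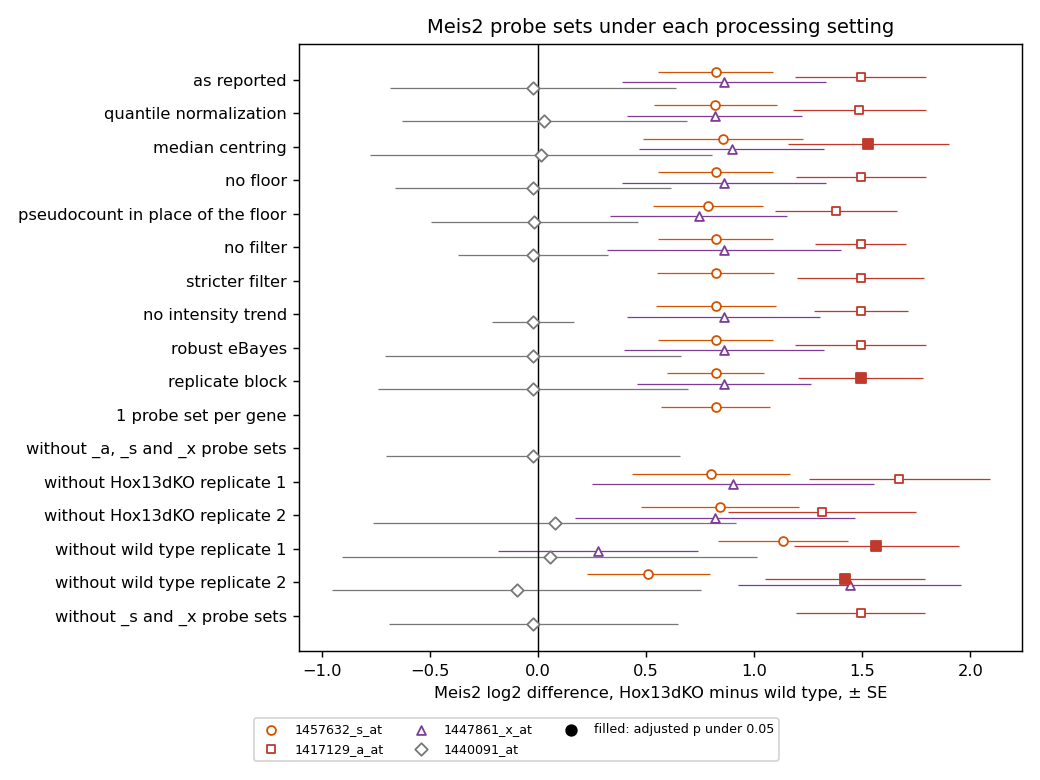
Log2 difference, Hox13dKO minus wild type, with its SE for the 4 Meis2 probe sets under each processing setting; filled points have an adjusted p under 0.05. The squares (1417129_a_at) lie between 1.31 and 1.67 in every setting that kept this probe set and are filled in 4 of them, while the diamonds (1440091_at) lie near 0.

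Meis1, the other MEIS gene of the proximal limb, did not separate the groups by either probe set tested. By its brightest probe set, 1450992_a_at, it read 180.2 and 281 in Hox13dKO against 148 and 198 in wild type. Hox13dKO replicate 1 lay between the wild-type arrays, and the log2 difference was 0.39 ± 0.35 (95% interval -0.40 to 1.19; adjusted p = 0.939). By 1443260_at it read 43.6 and 70.8 against 43.3 and 61.2, again overlapping. The probe set that was not tested, 1459423_at, read 7.78 and 48.4 against 55.04 and 53.1. Both Hox13dKO arrays were lower there, and 1 of them was under the floor. Meis3, a MEIS gene best known from the hindbrain, has 1 probe set, which read 46.8 and 43.7 in Hox13dKO against 79.3 and 58.6 in wild type. Both Hox13dKO arrays were lower, but the signals were dim and the difference, -0.59 ± 0.58, was about as large as its SE (adjusted p = 0.946). With no intensity trend in the limma prior the SE was 0.23 and it still did not pass (adjusted p = 0.814). The 95% interval of Meis3 was -1.93 to 0.74. None of the 7 Meis probe sets tested had a 95% interval within 2-fold of no change. With 2 arrays per group a 2-fold rise of Meis1 or a 2-fold fall of Meis3 could thus not be told from no change.

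PKNOX proteins, also called PREP, bind PBX as MEIS proteins do. Pknox1 had 3 probe sets, and the arrays overlapped in all of them. By the brightest, 1437470_at, it read 848 and 782 in Hox13dKO against 578 and 829.9 in wild type. Wild type replicate 1 was the low array for all 3, and without it the log2 differences, 0.07 to 0.29, were -0.31 to -0.0026. That array also had the lowest actin ratio, 0.473, whose part in the result was not tested. Pknox2 read 1124 and 768 in Hox13dKO against 734 and 693 in wild type by 1433907_at, a difference of 0.38 ± 0.21 (95% interval -0.11 to 0.87; adjusted p = 0.893). Hox13dKO replicate 1 stood highest there, and by the other probe set, 1428017_at, the arrays overlapped and the difference had the opposite sign, -0.15 ± 0.33.

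PBX proteins are the partners that HOX proteins of most groups need to select their DNA sites. By 1418893_at Pbx2 read 3714 and 3796 in Hox13dKO against 4673 and 3966 in wild type, a log2 difference of -0.20 ± 0.14 (95% interval -0.51 to 0.12; adjusted p = 0.919). By 1418894_s_at it read 1074 and 1333 against 1457 and 1433, and by 1449261_at 1120.4 and 982 against 1179.7 and 1241. Both Hox13dKO arrays lay below both wild-type arrays in all 3, with differences of -0.20 to -0.27, none past the threshold. Pbx3 differed the other way. By 1447640_s_at it read 1561 and 1417 in Hox13dKO against 1284 and 905 in wild type, a difference of 0.46 ± 0.20 (95% interval 0.01 to 0.91; adjusted p = 0.774), which was 0.72 without wild type replicate 1 and 0.21 without replicate 2. By 1421193_a_at it read 431 and 542 against 469.8 and 357, with overlapping arrays and a difference of 0.24 ± 0.24. Whether Pbx2 and Pbx3 differ from each other in their response was not tested.

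By brightest probe set the TGIF genes had the smallest differences of the 9 genes. Tgif1 read 1987 and 1745 in Hox13dKO against 1722 and 1974 in wild type, a log2 difference of 0.01 ± 0.15 with a 95% interval from -0.33 to 0.36 (adjusted p = 0.996). Tgif2 read 2397 and 2033 against 2327 and 2262 by 1434400_at, a difference of -0.06 ± 0.14 (95% interval -0.39 to 0.28). By the dimmer 1431115_at it read 297 and 300.1 against 295 and 262, a difference of 0.10 ± 0.24. All 13 probe sets of the Pbx, Pknox and Tgif genes had 95% intervals within 2-fold of no change.

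**Figure D3:**
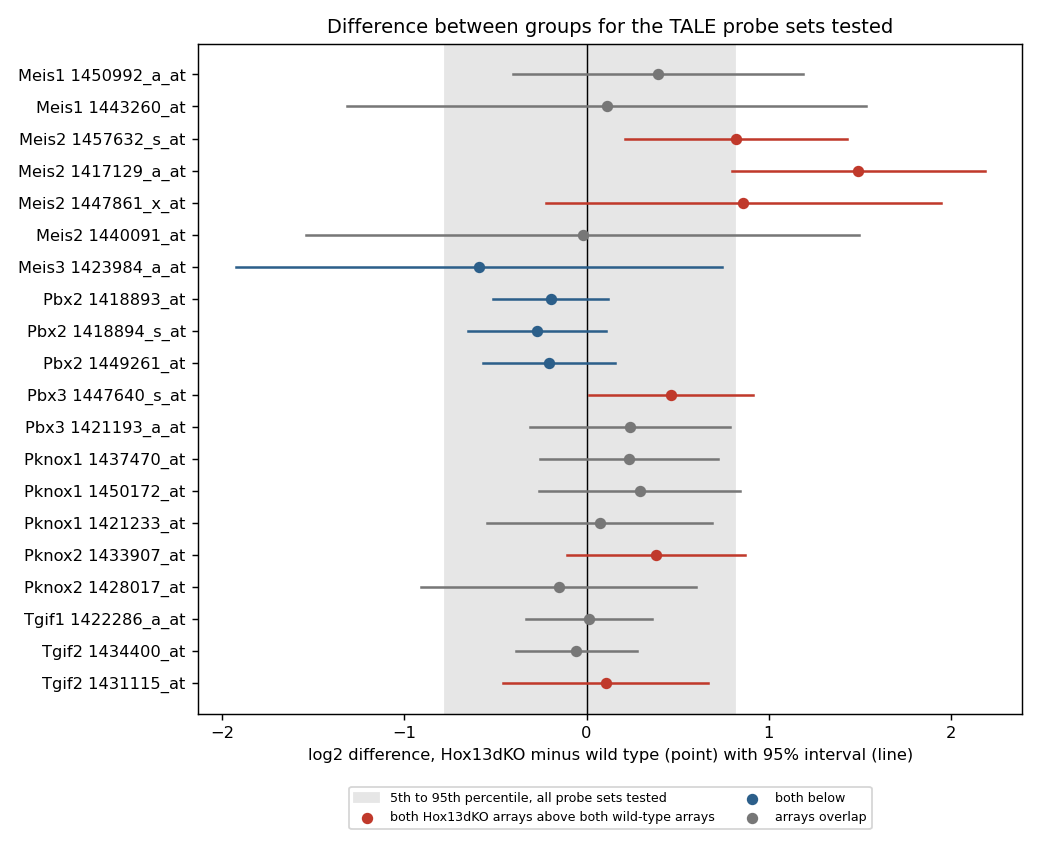
Log2 difference, Hox13dKO minus wild type, of the 20 TALE probe sets tested, with limma 95% intervals, coloured by whether the arrays of the groups separate. The band is the 5th to 95th percentile of all probe sets tested, -0.78 to 0.82; 3 probe sets of Meis2 lie at or beyond its upper edge and 0 members lie below its lower edge.

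By the brightest Meis2 probe set, the 5 genes whose log2 signal was most alike over the 4 arrays were Cd93, Focad, Mkx, Dgat1 and Spata1, with Pearson r from 0.9993 to 0.9999. Their log2 differences were 0.24 to 0.60, and none passed the threshold. Over only 4 arrays 61 of 13071 genes had r above 0.99.

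Other genes of the TALE class and of the pathways that set Meis expression were compared by brightest probe set, beside 0.306% of all genes past the threshold. Of 7 Iroquois and Mkx genes, all on the array, 6 were bright enough to be tested. In either direction 0 passed in limma, 2 had an unadjusted p under 0.05 (Irx1 and Irx3), and the median log2 difference was 0.58. Irx1, an Iroquois gene, read 64.5 and 69.95 in Hox13dKO against 188 and 368 in wild type (-1.97 ± 0.43; adjusted p = 0.210). Irx3, which marks anterior and proximal limb mesenchyme, read 247 and 271 against 138 and 126 (0.97 ± 0.30; adjusted p = 0.530). The groups did not overlap in either, nor for Irx4 (1.48 ± 0.77), whereas they did for Irx2 (0.74 ± 0.46); over the list they did not overlap for 3 higher and 1 lower gene, against 37.2% of all genes. Irx1 passed after median centring and without wild type replicate 1.

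Of 18 retinoic acid genes 16 were on the array and 13 were bright enough to be tested. Past the threshold 1 was higher and 0 were lower, and the median was 0.07. Crabp1, which binds retinoic acid in the cytoplasm, read 6973 and 7087 in Hox13dKO against 3617 and 2655 in wild type (1.18 ± 0.17, 2.27-fold; adjusted p = 0.0481), and it no longer passed without either Hox13dKO replicate. Aldh1a2, which makes retinoic acid, read 676 and 639.7 against 1198 and 1618 and did not pass (-1.08 ± 0.19; adjusted p = 0.102), though it did without wild type replicate 1. Cyp26a1, which breaks retinoic acid down, differed by -0.68 ± 0.29 and the retinal reductase gene Dhrs3 by 0.71 ± 0.22, neither past the threshold.

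Of 15 distal FGF genes, all measured, 0 passed in limma in either direction, 5 had an unadjusted p under 0.05, all higher, and the median was 0.26. Fgf4, a ridge ligand, differed by 1.79 ± 0.43, Fgf8, the main ridge ligand, by 0.83 ± 0.22, the receptor gene Fgfr1 by 0.47 ± 0.16 and the feedback phosphatase gene Dusp6 by 0.38 ± 0.14. Fgf4 passed after median centring and without wild type replicate 2. For these 4 the Hox13dKO arrays lay above the wild-type arrays. Over the list the arrays did not overlap for 7 higher and 2 lower genes (37.2% of all genes in either direction); the lower were Spry2 (-0.15) and Spry4 (-0.32), feedback inhibitors. The FGF target genes Etv4 (-0.48) and Etv5 (-0.23) also had negative differences, with overlapping arrays; these and the Spry genes are named after their values were seen. The 11 Tgif partner genes, through which TGIF proteins act on SMAD and retinoid receptors, held 0 past the limma threshold, 0 with an unadjusted p under 0.05 and a median of -0.02. Their differences spanned only -0.12 to 0.23: Ski, a SMAD repressor, differed by 0.23 ± 0.15, the deacetylase gene Hdac1 by -0.12 ± 0.12, Skil by -0.07 ± 0.15 and Ctbp2 by -0.06 ± 0.13.

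Of 10 proximal limb genes, chosen with results of these data known, 4 were higher past the threshold (Hoxa11, Hoxd9, Tshz2 and Shox2), 0 were lower and the median was 0.76. Over the list the arrays did not overlap for 7 genes with higher and 2 with lower signal, against 37.2% of all genes in either direction. Those with lower signal were Emx2 (-0.39) and Tshz1 (-0.16), and for Hoxd10 (0.08) the arrays overlapped. Hoxa11, a forearm gene, read 5490.2 and 5628 against 1568 and 1492, and Hoxd9, which patterns the upper arm, 9282 and 8878 against 2147 and 1516. Both lie in the Hox clusters that carry the targeted alleles, and the part of the alleles in their signal was not tested. Without Hox13dKO replicate 1 or 2 the higher genes were Hoxa11 and Hoxd9.

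**Figure D4:**
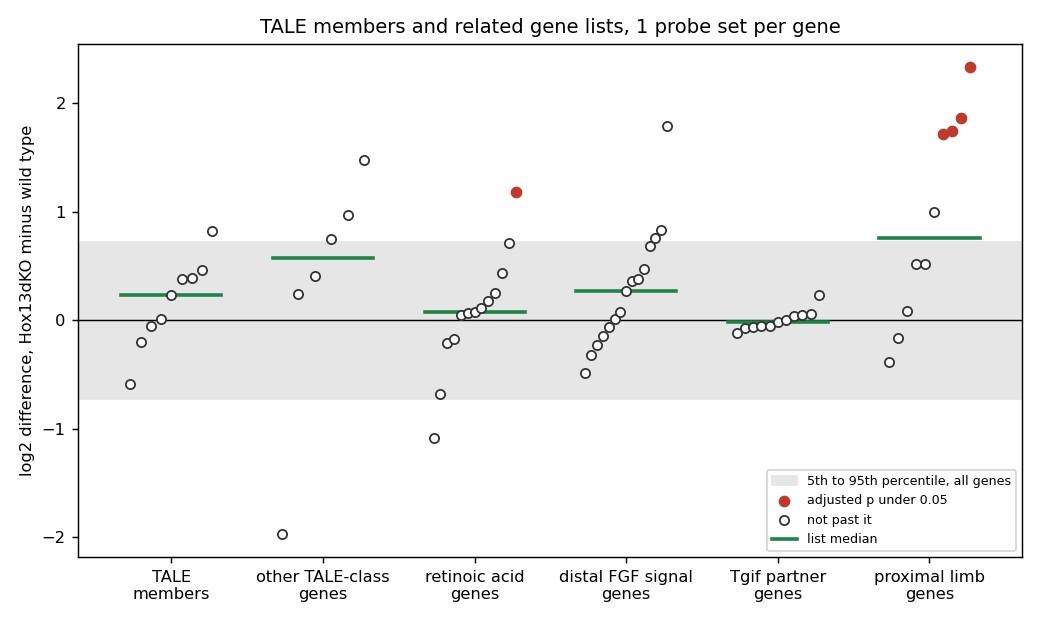
Log2 difference, Hox13dKO minus wild type, of each gene by its brightest probe set, for the 9 TALE genes and 5 related lists; bars are list medians, filled points have an adjusted p under 0.05 and the band is the 5th to 95th percentile of all genes, -0.72 to 0.72. The filled points are Crabp1 and 4 proximal limb genes, and the Tgif partners stay closest to 0.

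Markers of other cell types were compared with the same background, 37.2% of all genes with arrays that did not overlap, in either direction. The summed signal of 10 muscle markers was 1941 and 4087 in Hox13dKO against 618 and 639 in wild type, with 8 of 10 genes higher on both Hox13dKO arrays and 0 lower, a share above that background. That of 8 endothelial markers was 3499.9 and 4337 against 2901 and 3116, with 4 higher and 0 lower, and that of the 6 of 7 nerve markers on the array 468 and 709 against 931 and 1075, with 0 higher and 4 lower. For the 6 of 7 erythroid markers on the array 3 were higher and 0 lower. For 7 macrophage markers the counts were 3 and 0, and for 8 ectoderm markers 2 and 2. Of all 13072 genes the arrays did not overlap for 2238 higher and 2629 lower. The endothelial, erythroid and macrophage counts thus lay on the higher side only. Whether these small lists differ from the background was not tested. Without the deleted Hoxd13, the 7 limb mesenchyme markers summed to 32194 and 26003 against 29593 and 28575, which overlap, with 1 higher and 3 lower. No marker was at the floor on all arrays. The part of these cells in the Meis2 difference was not tested.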

How the data were processed

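MAS5 intensity values on a linear scale were used as the authors deposited them, and per the submitters' processing notes MAS5 was the tool. It subtracts background and scales each array; detection calls were not used. Values below 14.1 units, the 20th percentile, were set to that floor before log2 was taken. After removal of 64 control probe sets, 27022 probe sets with a mean log2 signal at or above the 40th percentile (39.6 units) were tested. Hox13dKO was set against wild type in limma 3.58.1 (R 4.3.3) with lmFit and a two-sided eBayes test whose prior variance follows mean signal (2 residual and 6.05 prior degrees of freedom). Benjamini-Hochberg adjustment ran over every tested probe set. Exact permutation of 2 against 2 arrays cannot go below p = 0.333 and was not used. The number of arrays limits the precision.

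Platform symbols of all 21 member probe sets matched RefSeq (GRCm38.p6) by gene ID. A gene with several probe sets is summarised by the brightest where stated. All members are named, as are up to 4 genes per list with the lowest p, the targeted genes and the 5 genes most like the member gene with the lowest p by brightest probe set. The members and lists were chosen with earlier results of these data known. Alternatives changed the scaling, floor, filter, eBayes options, threshold and probe sets, added a replicate block or left out an array; one, without _s and _x probe sets, was chosen after seeing the data. Steps were tested on simulated arrays. Figures were drawn with matplotlib 3.10.9.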

Additional observations from a re-analysis of the deposited data

How the results depend on the processing

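The count of TALE probe sets past the threshold, 0, was 1 after median centring, with the replicate block and when either wild-type array was left out (range 0 to 1 over the arrays left out); the probe set was Meis2 1417129_a_at each time, with adjusted p from 0.0146 to 0.0445. The count over all probe sets, 56 (31 higher, 25 lower), was 214 after median centring (146 higher, 68 lower), 0 with no filter (3159 at an unadjusted p under 0.05), 1 without the intensity trend, 418 with the replicate block, 95 with 1 probe set per gene, 111 at an adjusted p of 0.10, and 16 to 477 with an array left out. The prior degrees of freedom of the fit were 143 after median centring, 10.1 with the block and 23.1 and 23.8 without a wild-type array, against 6.05. Where a group kept a single array, that array is assumed to vary like the other group. The replicate numbers were not taken to pair the samples: same-numbered deviations correlated with r = 0.198 over probe sets, and only 2 pairs exist. With the block, other TALE-class genes held 1 (Irx1), retinoic acid genes 2, distal FGF genes 2 and proximal limb genes 7.

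For the lists, other TALE-class genes held 1 after median centring and 0 to 1 with an array left out. Distal FGF genes held 1 after median centring and 0 to 1 with an array left out. Retinoic acid genes held 0 with no floor, no filter, no intensity trend or without _a, _s and _x probe sets, 2 with 1 probe set per gene and 0 to 2 with an array left out. Proximal limb genes held 0 with no filter or no intensity trend and 2 to 5 with an array left out. Among the TALE probe sets 13 values under an alternative had the opposite direction. The filter, trend, robust, block and probe set alternatives leave a difference as it is by construction, so they say nothing of direction. Meis2 1440091_at, -0.02, was 0.031 after quantile normalization, 0.013 after median centring and -0.098 to 0.079 with an array left out. With an array left out, the others that crossed 0 were Meis1 1443260_at (-0.24 to 0.46), Pknox1 1421233_at (-0.31 to 0.45), 1437470_at (-0.027 to 0.49) and 1450172_at (-0.0026 to 0.59), Pknox2 1428017_at (-0.32 to 0.012), Tgif1 (-0.085 to 0.11) and Tgif2 1434400_at (-0.17 to 0.063). Averaged over its probe sets Tgif2 differed by 0.024. The cause of these turns was not tested. Without _a, _s and _x probe sets only 1440091_at remained for Meis2.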
